A study of Mus musculus with 480 samples.

Results

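The Myc family and a set of growth-related genes known as Myc targets were followed in single mouse lung cells. The set held 10 of the 53379 genes in the deposited count table, matched by Ensembl identifier, and all 10 were found. They were the transcription factors Myc, Mycl and Mycn, their binding partner Max, the polyamine enzyme Odc1 and the nucleolar genes Heatr1, Ncl, Nop56, Fbl and Npm1. The set was chosen by levels measured in these same cells: Myc, Odc1 and Heatr1 were high in the bronchioalveolar stem cells (BASCs) of the dual-recombinase tracer line. Their levels in that group are therefore given as a description only.

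The data were 480 tdTomato-positive epithelial cells sorted from digested lungs, 160 from each of 3 reporter lines, on 5 plates of 96 wells, with libraries of full-length cDNA. BASCs-Tracer mice carried Sftpc-DreER and Scgba1a1-CreER with the reporter R26-RSR-LSL-tdtomato, which marks cells in which both recombinases acted. By the labels' sub-types the line gave 15 club cells, 6 alveolar type 2 (AT2) cells and 1 ciliated cell, and the remaining cells, 85 on plate 1 and 53 on plate 2, were BASCs. Scgb1a1-TD mice carried Scgba1a1-CreER with R26-tdtomato and gave 38 BASCs, 24 ciliated cells, 97 club cells and 1 AT2 cell. Sftpc-TD mice carried Sftpc-DreER with R26-RSR-tdtomato and gave 11 BASCs and AT2 cells, 60 on plate 4 and 89 on plate 5. Each line therefore reports past activity of the Scgb1a1 promoter, the Sftpc promoter or both, with a drug-inducible recombinase, and how the sub-types were assigned is not given in the sources used here. No animal is named, so each line counts as 1 sample, no test was run and cells are not replicates of a line.

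Myc and its relatives are basic helix-loop-helix leucine zipper factors that bind DNA as dimers with Max, with a preference for the E-box CACGTG. Their best known targets serve cell growth: synthesis of polyamines, transcription and processing of ribosomal RNA, and assembly of ribosomes. Myc is also an early response gene whose mRNA is short-lived and is induced when quiescent cells are stimulated, while Mycl and Mycn are used in fewer tissues, with Mycn known for its role in the growing lung epithelium of the embryo.

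In GRCm38, Myc lies at chr15:61985391-61990374 on the plus strand, Mycl at chr4:122995652-123002485 on the plus strand and Mycn at chr12:12936093-12941914 on the minus strand. Max lies at chr12:76937269-76962201 on the minus strand, Odc1 at chr12:17544794-17551505 on the plus strand and Heatr1 at chr13:12395027-12440289 on the plus strand. Ncl lies at chr1:86344719-86359400 on the minus strand, Nop56 at chr2:130274430-130279313 and Fbl at chr7:28169710-28179269 on the plus strand, and Npm1 at chr11:33152287-33163206 on the minus strand. All 10 are protein-coding genes. Promoter sequences from RefSeq (build GRCm38.p6, 250 bases before to 50 bases after the start) were matched for 7 of the 10 and searched for CACGTG, which reads the same on both strands and overlaps no other motif searched. Max held the motif, starting 3 bases before the start site, and no other matched member held these letters in its window. The motif was present in 7.15% of 32851 promoters of the same length. The promoter of Max is printed for its match, with the motif in capitals, and those of Odc1, Heatr1 and Mycl because, after Myc, their levels differed most between groups.
Max, chr12:76962199-76962498, minus strand: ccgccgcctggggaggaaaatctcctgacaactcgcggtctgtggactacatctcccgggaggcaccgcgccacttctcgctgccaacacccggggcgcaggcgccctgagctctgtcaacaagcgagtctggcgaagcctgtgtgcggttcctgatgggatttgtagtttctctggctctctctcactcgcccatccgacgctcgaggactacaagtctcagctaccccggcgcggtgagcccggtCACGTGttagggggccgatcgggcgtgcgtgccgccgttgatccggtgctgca
Odc1, chr12:17544623-17544922, plus strand: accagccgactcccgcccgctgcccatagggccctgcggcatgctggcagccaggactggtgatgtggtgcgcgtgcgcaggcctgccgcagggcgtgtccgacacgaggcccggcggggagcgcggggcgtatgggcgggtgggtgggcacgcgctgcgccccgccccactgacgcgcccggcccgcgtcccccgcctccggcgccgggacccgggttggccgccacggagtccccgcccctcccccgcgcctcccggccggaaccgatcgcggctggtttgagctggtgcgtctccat
Heatr1, chr13:12395125-12395424, plus strand: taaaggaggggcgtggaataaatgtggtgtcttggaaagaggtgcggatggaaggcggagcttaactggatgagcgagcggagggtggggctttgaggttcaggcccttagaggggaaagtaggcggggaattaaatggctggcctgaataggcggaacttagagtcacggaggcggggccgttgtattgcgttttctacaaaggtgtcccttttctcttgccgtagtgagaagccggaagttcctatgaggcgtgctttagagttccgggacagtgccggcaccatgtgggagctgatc
Mycl, chr4:122995681-122995980, plus strand: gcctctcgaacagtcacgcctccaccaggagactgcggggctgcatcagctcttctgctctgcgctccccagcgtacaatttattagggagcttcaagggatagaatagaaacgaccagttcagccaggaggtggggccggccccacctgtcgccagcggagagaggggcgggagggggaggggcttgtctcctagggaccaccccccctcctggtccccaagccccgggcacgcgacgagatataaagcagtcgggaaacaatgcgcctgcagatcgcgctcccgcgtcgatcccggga
A match is a description of letters and says nothing of binding in these cells.

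Depth had a median of 1000465 reads per cell, over a range of 3379 to 3781974, and no 2 cells held identical counts. Levels are CPM, the reads of a gene summed over the cells of a group and divided by all reads of those cells, times 1000000, with exact 95% Poisson intervals, and shares of cells carry exact 95% binomial intervals. Both cover counting error only, since PCR copies of one molecule were not marked. Defining markers of the annotated types were checked. Sftpc stood at 174513 CPM in BASCs-Tracer BASCs, 258012 CPM in Scgb1a1-TD BASCs, 167394 CPM in Sftpc-TD BASCs and 160638 CPM in Sftpc-TD AT2 cells, against 4062 CPM in Scgb1a1-TD club cells. Scgb1a1 stood at 13416 CPM in BASCs-Tracer BASCs, 3518 CPM in Scgb1a1-TD BASCs and 8464 CPM in Sftpc-TD BASCs, against 1285 CPM in Sftpc-TD AT2 cells and 258576 CPM in Scgb1a1-TD club cells. In Sftpc-TD BASCs this rested on single cells, with 130015, 45101 and 12371 CPM, while 5 of the 11 had between 112.7 and 741.9 CPM, less than the level of the AT2 cells. The 6 BASCs-Tracer AT2 cells had 3766 CPM of Scgb1a1, more than Scgb1a1-TD BASCs. Summed over 8 club markers, BASCs had 26099 CPM in BASCs-Tracer, 12338 CPM in Scgb1a1-TD and 17689 CPM in Sftpc-TD. AT2 cells had 16038 CPM in Sftpc-TD and 12753 CPM in BASCs-Tracer, so club markers did not set Scgb1a1-TD BASCs above AT2 cells. Scgb1a1-TD ciliated cells had 349.3 CPM of Foxj1, against 2.35 CPM in the club cells. The 1 ciliated cell of BASCs-Tracer had no read of Foxj1.

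**Figure D1:**
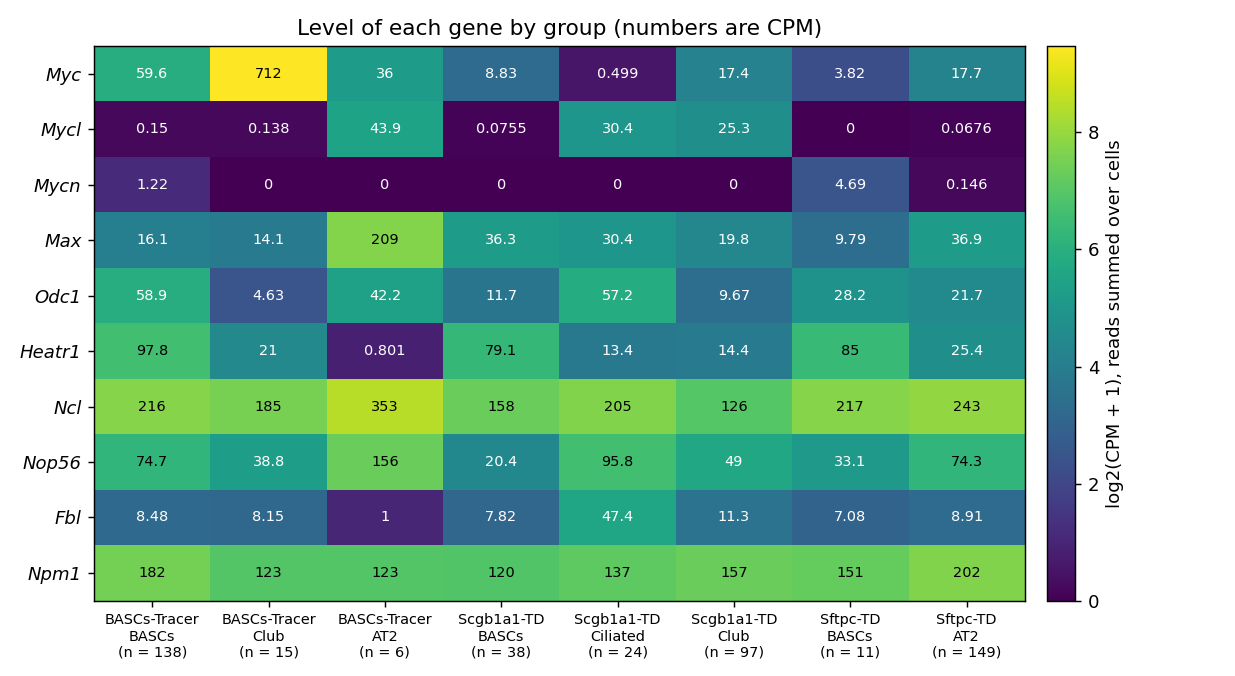
Level of each of the 10 genes (rows) in the 8 groups of 6 or more cells (columns); colour is log2(CPM + 1) and the printed number is CPM of summed reads. Myc stood at 711.9 CPM in BASCs-Tracer club cells and at 0.499 CPM in ciliated cells, while Ncl and Npm1 stood above 100 CPM in every group.

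Among BASCs-Tracer BASCs, levels per kilobase of exon put Npm1 first, at 68.1 CPM per kb. Myc (21.9), Ncl (21.2), Nop56 (18.2), Odc1 (17.3) and Heatr1 (12.5 CPM per kb) formed a middle range. Max had 4.48, Fbl 2.02, Mycn 0.37 and Mycl 0.0372 CPM per kb. Length was that of all annotated exons merged, 10.188 kb for Ncl and 2.717 kb for Myc, so this order depends on the annotation. Without division by length, Ncl had 215.9 CPM and Myc 59.6 CPM. Reads of Ncl and Myc were spread over cells in different ways: 99.3% of cells had a read of Ncl, and 56.5% had a read of Myc.

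Myc, the founding member of the family, was highest in the BASCs-Tracer club cells. Its level there was 711.9 CPM (interval 698.3 to 725.8, 15 cells), and single cells ranged from 0 over a median of 160.0 to 2291 CPM. BASCs-Tracer BASCs had 59.6 CPM (58.2 to 61.1), with cells from 0 over a median of 1.08 to 1007 CPM. The 6 AT2 cells of the line had 36 CPM, nearly all from 1 cell. The 15 club cells thus held Myc in most cells, while the typical BASC of the line had about 1 read or none.
In Scgb1a1-TD, Myc stood at 8.83 CPM in BASCs, 0.499 CPM in ciliated cells and 17.4 CPM in club cells, with highest cells of 148.6, 7.62 and 389.3 CPM. In Sftpc-TD it stood at 3.82 CPM in BASCs and 17.7 CPM in AT2 cells, with highest cells of 80.9 and 795.2 CPM. The median cell was at 0 CPM in each of these 5 groups, and single cells of every group overlapped those of every other. AT2 cells and club cells, next to each other in the order of levels, differed by less than the width of their intervals, 17.1 to 18.3 and 16.6 to 18.3 CPM.

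**Figure D2:**
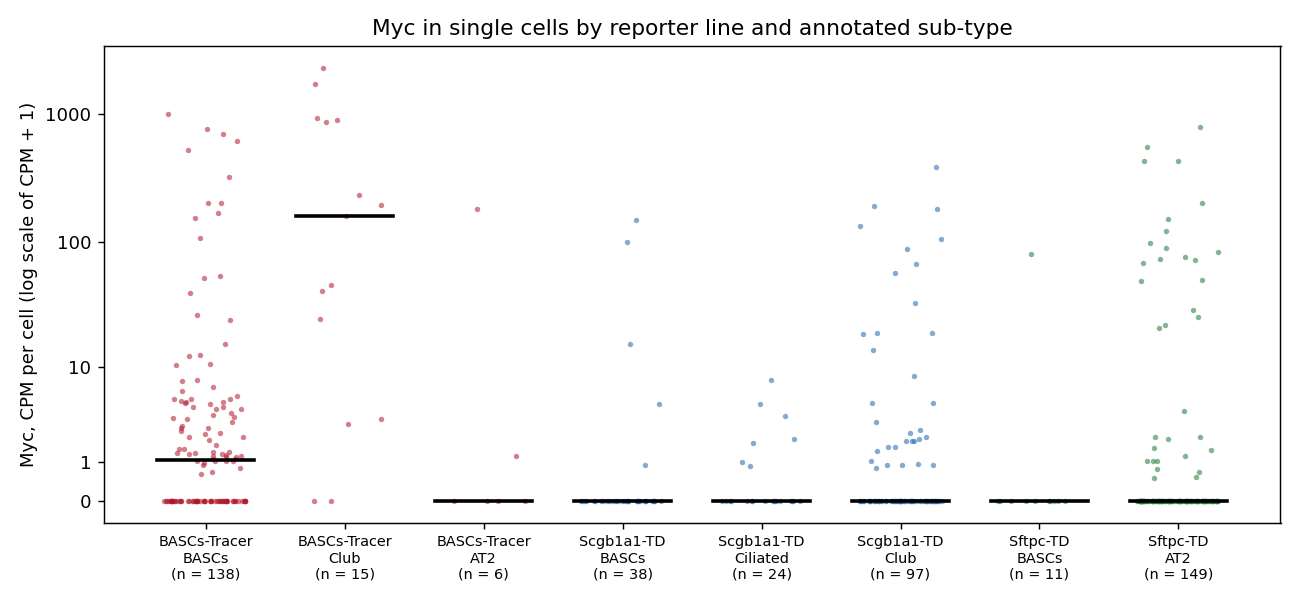
Myc in each cell, in CPM on a log scale of CPM + 1, by group (BASCs-Tracer red, Scgb1a1-TD blue, Sftpc-TD green); each point is a cell and each black line the group median. Of the groups shown, BASCs-Tracer BASCs (median 1.08 CPM) and club cells (median 160.0 CPM) are the ones with a median above 0, and cells above 100 CPM occur in 6 of the 8 groups.

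Set against the other lines, Myc in BASCs-Tracer BASCs was higher than in Sftpc-TD AT2 cells by a log2 ratio of 1.70, than in Scgb1a1-TD club cells by 1.72, than in Scgb1a1-TD BASCs by 2.62 and than in Sftpc-TD BASCs by 3.65. Each ratio was taken after adding 1 CPM to both groups, which understates the fold of low genes. The excess rested on few cells: the 3 highest BASCs-Tracer BASCs held 69% of the group's Myc reads and the highest alone 45.7%. Without the 3 highest cells of each group, the level in BASCs-Tracer BASCs was 19.4 CPM, against 10.4 CPM in Sftpc-TD AT2 cells, 8.33 CPM in Scgb1a1-TD club cells and 0.162 CPM in Scgb1a1-TD BASCs. The log2 ratio to AT2 cells was then 0.83, under 2-fold, and it was 0.67 when each cell was weighted equally, 0.54 after thinning to 100000 reads, 0.86 without plate 2 and 0.88 without plate 5.
By plate, BASCs-Tracer BASCs had 32.8 CPM on plate 1 (85 cells) and 103.8 CPM on plate 2 (53 cells), while Sftpc-TD AT2 cells had 31.9 CPM on plate 4 (60 cells) and 10.4 CPM on plate 5 (89 cells). The log2 ratio was above 0 in all 4 plate pairs, from 0.04 to 3.20, and no plate held both of these groups. Myc was chosen for its level in these BASCs, and the pairs reuse the same plates, so they are no separate support.

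Counted by cells, 10 reads or more of Myc were found in 14 BASCs-Tracer BASCs, a share of 10.1% (5.66 to 16.4%). The share was 11.3% (5.8 to 19.4%) in Scgb1a1-TD club cells and 14.1% (8.94 to 20.7%) in Sftpc-TD AT2 cells. By this measure BASCs-Tracer BASCs did not stand above either type, and the intervals of all 3 overlapped. Their median depth was lower, 775502 reads against 1082694 in Scgb1a1-TD club cells and 1114309 in Sftpc-TD AT2 cells. The share was 66.7% (38.4 to 88.2%) in BASCs-Tracer club cells, 10 of 15, and 5.26% (0.644 to 17.7%) in Scgb1a1-TD BASCs. Thinned to 100000 reads a cell, which left out 12 cells, the shares were 7.52% in BASCs-Tracer BASCs and 61.5% in the club cells of that line, 5.32% in Scgb1a1-TD club cells and 5.41% in Sftpc-TD AT2 cells. At this equal depth BASCs-Tracer BASCs thus had the larger share, on 10 cells against 5 club cells and 8 AT2 cells of the other lines.
Cells with 1 to 9 reads of Myc made up 38.5% of plate 1 and 47.9% of plate 2, the plates of BASCs-Tracer, and 14.6%, 10.4% and 6.25% of plates 3, 4 and 5. On plate 2, where Myc reads were most numerous (12901 in all) and among wells under 10 reads, such cells were 76.7% of those that shared a row or column with the 3 wells holding most Myc, against 41.8% of the others. On plate 1 the shares were 55.9% against 40%. The part of reads carried over between wells in these low counts was not tested, and a threshold of 10 reads was used for presence.

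Myc also differed between the club cells of the 2 lines. Myc stood at 711.9 CPM in BASCs-Tracer club cells and 17.4 CPM in Scgb1a1-TD club cells, a log2 ratio of 5.27. It was higher in all 6 plate pairs, by 3.87 to 5.81, and on plate 2, which held 8 and 22 such cells, the levels were 878.4 and 26.2 CPM. Without the 3 highest cells of each group the ratio was 4.63. BASCs-Tracer club cells also stood above BASCs of the same line, 59.6 CPM in BASCs against 711.9 CPM in club cells (log2 ratio -3.56), with log2 ratios of -3.56 on plate 1 and -3.07 on plate 2.
These club cells differed from those of Scgb1a1-TD in other ways: club markers summed to 243665 CPM in BASCs-Tracer and 369833 CPM in Scgb1a1-TD, AT2 markers to 48505 and 29628 CPM, and immediate early genes, which respond to stimulation and to cell dissociation, to 17895 and 10953 CPM in the same order. The part of these differences in the level of Myc was not tested.

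Mycl, a family member first known from lung cancer, was found mainly in ciliated and club cells of Scgb1a1-TD. BASCs-Tracer had 0.15 CPM in BASCs and 0.138 CPM in club cells, Sftpc-TD had 0 reads in BASCs and 0.0676 CPM in AT2 cells, and Scgb1a1-TD BASCs had 0.0755 CPM. Scgb1a1-TD ciliated cells had 30.4 CPM (28.2 to 32.8) and club cells of that line 25.3 CPM (24.4 to 26.4), with highest cells of 372.0 and 219.4 CPM. Airway cells of Scgb1a1-TD thus carried Mycl, and cells with AT2 markers had close to none in any line, except 1 AT2 cell of BASCs-Tracer with 270.1 CPM and 1 of Sftpc-TD with 10.2 CPM.
The club cells of the 2 lines again differed. None of 15 BASCs-Tracer club cells had 10 reads of Mycl (upper limit 21.8%), against 28 of 97 Scgb1a1-TD club cells (28.9%, 20.1 to 39%). These intervals overlapped. The summed reads were 2 in BASCs-Tracer club cells and 2463 in Scgb1a1-TD club cells, so CPM was 183.6-fold lower in BASCs-Tracer with a counting interval from 50.8-fold to 1517-fold. Over the 3 plates of Scgb1a1-TD, the share of club cells with 10 reads was 31.8%, 26.7% and 33.3%, on plate 2 as on the others. In ciliated cells Mycl was in 4 of 24 cells, and 3 cells held 95.8% of the reads.

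**Figure D3:**
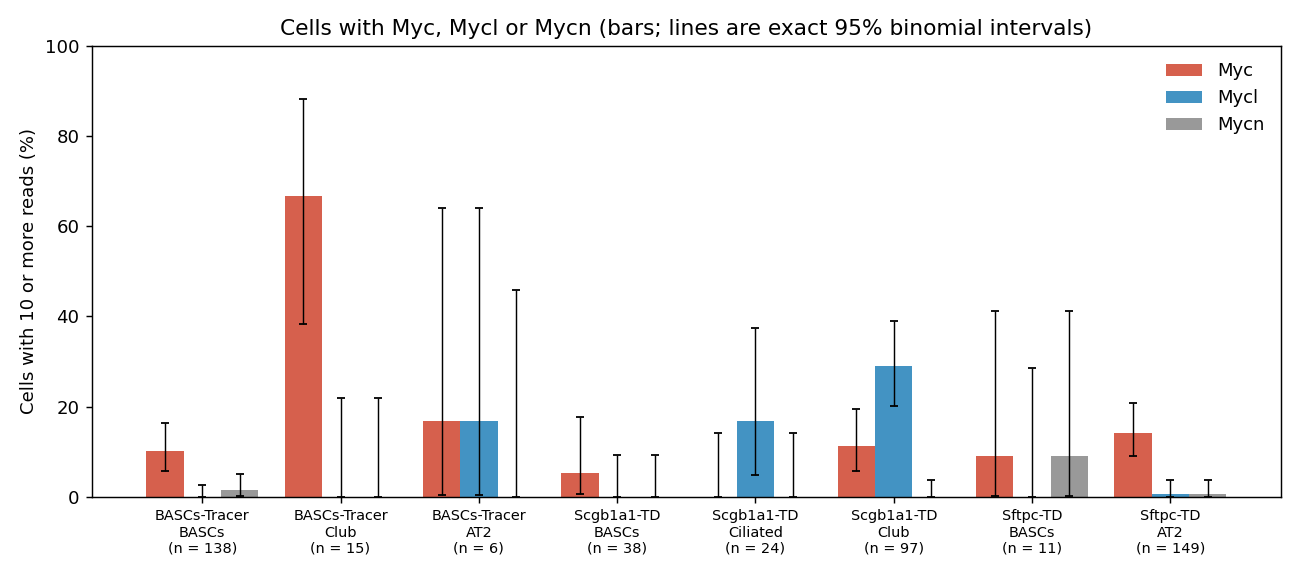
Share of cells with 10 or more reads of Myc (red), Mycl (blue) and Mycn (grey) in each group, in percent, with exact 95% binomial intervals. Myc was found in 66.7% of BASCs-Tracer club cells and 11.3% of Scgb1a1-TD club cells, and Mycl in 0% and 28.9% of them.

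Mycn was nearly absent. It had 130 reads in BASCs-Tracer BASCs, 59 in Sftpc-TD BASCs, 28 in Sftpc-TD AT2 cells and 0 in every other group, and 10 reads or more in 2, 1 and 1 cells of those 3 groups. Myc and Mycl both reached 10 reads in 5 of 97 Scgb1a1-TD club cells and in 0 cells elsewhere, and Myc and Mycn in 1 cell, a BASC of Sftpc-TD that also carried leukocyte markers. Per kilobase, Myc made up 98.2% of the reads of the 3 factors in BASCs-Tracer BASCs, 50.5% in Scgb1a1-TD club cells, 2.38% in ciliated cells and 99.1% in Sftpc-TD AT2 cells.

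Max, the partner that Myc, Mycl and Mycn need to bind DNA, was lower in BASCs-Tracer BASCs than in several groups. In BASCs-Tracer, levels were 16.1 CPM (15.4 to 16.9) in BASCs and 14.1 CPM (12.2 to 16.2) in club cells. In Scgb1a1-TD they were 36.3 CPM in BASCs, 30.4 CPM in ciliated cells and 19.8 CPM in club cells, and in Sftpc-TD 9.79 CPM in BASCs and 36.9 CPM in AT2 cells. By group, Max thus did not follow Myc: the group with most Myc had the next to lowest Max of the 7 groups with 10 or more cells. In that group, the BASCs-Tracer club cells, 1 of 15 cells held 95.6% of the Max reads, and that cell had 873.8 CPM of Myc. Without its 3 highest cells the group had 0.406 CPM of Max. Against Sftpc-TD AT2 cells the log2 ratio of BASCs-Tracer BASCs was -1.15, lower in all 4 plate pairs, and 16.7% of BASCs against 31.5% of AT2 cells had 10 reads. With each cell weighted equally the log2 ratio was -0.87, under 2-fold, and it was -0.82 after thinning, -0.84 with 10 CPM added, -0.96 without plate 2 and -0.81 without plate 5. The 6 BASCs-Tracer AT2 cells had 209.0 CPM of Max, in 4 of 6 cells.

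Odc1 makes ornithine decarboxylase, the rate-limiting enzyme of polyamine synthesis and a classical Myc target. It stood at 58.9 CPM (57.4 to 60.3) in BASCs-Tracer BASCs, with cells from 0 over a median of 1.13 to 877.2 CPM, at 4.63 CPM (3.58 to 5.87) in club cells of the line and at 42.2 CPM in its 6 AT2 cells. Scgb1a1-TD had 11.7 CPM in BASCs, 57.2 CPM (54.1 to 60.5) in ciliated cells and 9.67 CPM in club cells, and Sftpc-TD had 28.2 CPM in BASCs and 21.7 CPM in AT2 cells. BASCs-Tracer BASCs and Scgb1a1-TD ciliated cells were therefore highest, with overlapping intervals. In BASCs-Tracer club cells Odc1 stood at 12.6 CPM on plate 1 and 0.422 CPM on plate 2, and the log2 ratio to Scgb1a1-TD club cells was -0.92, under 2-fold, and above 0 in 3 of 6 plate pairs.
The log2 ratio of BASCs-Tracer BASCs was 1.40 to Sftpc-TD AT2 cells, 2.49 to Scgb1a1-TD club cells, 2.24 to Scgb1a1-TD BASCs and 3.41 to BASCs-Tracer club cells. In each of these comparisons it was higher in all plate pairs, and the levels on plates 1 and 2 were 60 and 57 CPM. Odc1 was chosen for its level in these BASCs, and the plate pairs reuse the same 2 plates of them. These values therefore describe the choice and are no separate support for it. Unlike Myc, Odc1 was spread over more cells: 35 BASCs (25.4%, 18.3 to 33.5%) had 10 reads, the 3 highest cells held 36.3% of the reads, and 39.2 CPM was left without them, against 16.1 CPM in Sftpc-TD AT2 cells treated likewise.
Ciliated cells were outside the choice of the genes, but the club cells they are set against were part of it. Odc1 reached 10 reads in 14 of 24 ciliated cells (58.3%, 36.6 to 77.9%), against 10 of 97 club cells (10.3%, 5.06 to 18.1%), and the log2 ratio of 2.45 was positive in all 9 plate pairs, from 1.33 to 7.07. Without plate 2 it was 1.76, without plate 3 it was 3.90, with 10 CPM added 1.77 and after thinning 3.28. In this pair the median over all 12011 measured genes was 0.74, and with median-of-ratios scaling the ratio of Odc1 was 2.01.

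Heatr1 encodes a HEAT-repeat protein of the nucleolus known from yeast and human cells to be needed for transcription and early processing of ribosomal RNA. It was highest in the BASCs of all 3 lines: 97.8 CPM (95.9 to 99.7) in BASCs-Tracer, 79.1 CPM (76.4 to 82) in Scgb1a1-TD and 85 CPM (79.9 to 90.2) in Sftpc-TD. Club cells had 21 CPM in BASCs-Tracer and 14.4 CPM in Scgb1a1-TD, ciliated cells 13.4 CPM and AT2 cells 25.4 CPM in Sftpc-TD and 0.801 CPM in BASCs-Tracer. The BASC groups thus lay above every other group, although single cells overlapped, from 0 CPM upward in all of them and up to 424.1 CPM in Sftpc-TD AT2 cells.
Comparisons of BASCs with other cells inside Scgb1a1-TD and Sftpc-TD were not what the genes were chosen on, although they share club and AT2 cells with the ones that were. Against Scgb1a1-TD club cells, BASCs of that line had a log2 ratio of 2.38, positive in all 9 plate pairs and from 2.62 to 2.79 on each of 3 shared plates. Against Sftpc-TD AT2 cells, BASCs of that line had a log2 ratio of 1.71, but the 4 BASCs of plate 4 carried it: the level was 157.0 CPM in those cells, against 18.2 CPM in AT2 cells of the plate, and 37.1 CPM in the 7 BASCs of plate 5, against 29 CPM in AT2 cells there (log2 ratio 0.34). The 4 BASCs of plate 4 had 168.0, 78.6, 353.3 and 0.934 CPM of Heatr1, and 12371, 113.5, 506.1 and 741.9 CPM of the club marker Scgb1a1 in the same order of cells, against 1285 CPM in AT2 cells of the line.
Within BASCs-Tracer the ratio of BASCs to club cells was 2.17, and 2.20 and 2.18 on plates 1 and 2. By cells, 10 reads of Heatr1 were found in 27.5% (20.3 to 35.8%) of BASCs-Tracer BASCs, 42.1% (26.3 to 59.2%) of Scgb1a1-TD BASCs and 54.5% (23.4 to 83.3%) of Sftpc-TD BASCs. The share was 11.3% (5.8 to 19.4%) in Scgb1a1-TD club cells and 17.4% (11.7 to 24.5%) in Sftpc-TD AT2 cells. Thinned to equal depth, the shares were 21.1%, 29.7% and 36.4% in the 3 BASC groups, in the same order, 6.38% in club cells and 8.11% in AT2 cells.
Exons of Heatr1 share 155 of 7828 bases with Lgals8 on the opposite strand, and whether counting used strand is not given in the sources used here, so reads there cannot be told apart. Lgals8 stood at 35.9 CPM in BASCs-Tracer BASCs, 56.8 CPM in Scgb1a1-TD BASCs and 18.5 CPM in Sftpc-TD BASCs. It stood at 34.9 CPM in Scgb1a1-TD club cells and 57.7 CPM in Sftpc-TD AT2 cells. The part of reads from the shared bases in the level of Heatr1 was not tested. If the sub-types were assigned from these same counts, Heatr1 may have taken part in it, which cannot be told apart here.

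**Figure D4:**
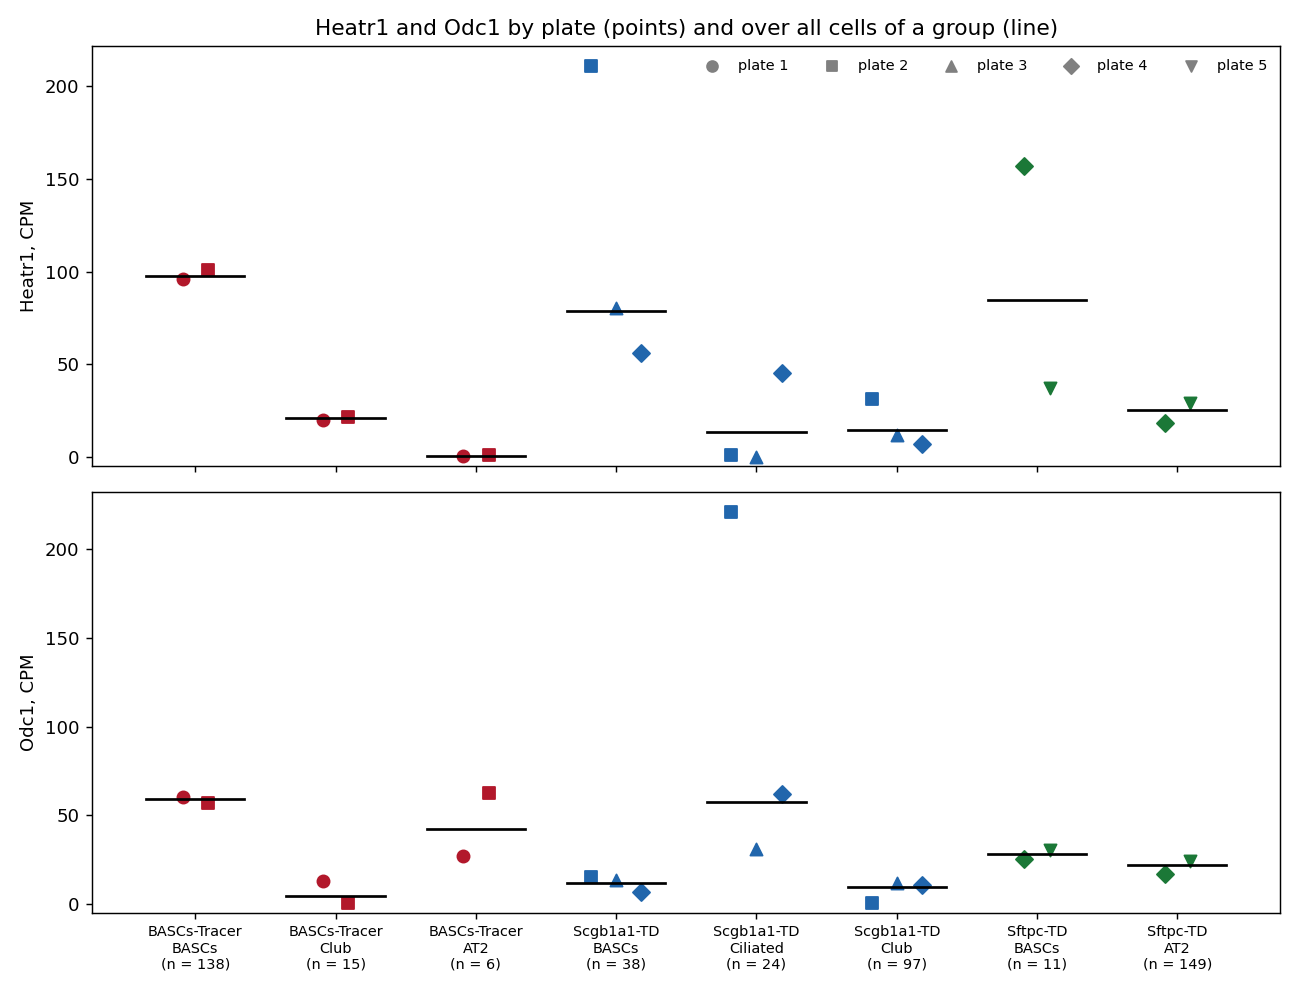
Heatr1 (top) and Odc1 (bottom) in CPM of summed reads by group; each point is the cells of a group on one plate, marked by plate, and each line the whole group. Heatr1 was higher in BASCs than in other cells of the same line, with 96.1 and 100.7 CPM on the 2 plates of BASCs-Tracer BASCs, while Odc1 had its highest point in ciliated cells (221.1 CPM on plate 2).

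The remaining nucleolar genes varied less. Ncl encodes nucleolin, a histone chaperone and RNA-binding protein of the nucleolus, and stood at 215.9 CPM (213.1 to 218.7) in BASCs-Tracer BASCs, over a range from 126.3 CPM in Scgb1a1-TD club cells to 243.1 CPM in Sftpc-TD AT2 cells. Npm1 encodes nucleophosmin, which shuttles ribosome subunits out of the nucleus, and stood at 181.5 CPM (179.0 to 184.1) in BASCs-Tracer BASCs, over a range from 119.9 CPM in Scgb1a1-TD BASCs to 202.1 CPM in Sftpc-TD AT2 cells. Across the 7 groups of 10 or more cells both stayed within 2-fold, 1.92-fold for Ncl and 1.68-fold for Npm1, where Myc spanned 475.5-fold on the scale with 1 CPM added. Small RNA genes on the same strand lie within annotated exons of Ncl and Nop56, exons of Nop56 share 5 bases with Idh3b on the opposite strand, and Npm1 has processed copies elsewhere in the mouse genome. How reads shared in these ways were counted is not given in the sources used here.

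Nop56 and Fbl belong to the box C/D particle, in which fibrillarin (Fbl) adds methyl groups to ribosomal RNA. In BASCs-Tracer, Nop56 stood at 74.7 CPM in BASCs and 38.8 CPM in club cells. In Scgb1a1-TD it stood at 20.4 CPM in BASCs, 95.8 CPM in ciliated cells and 49 CPM in club cells, and in Sftpc-TD at 33.1 CPM in BASCs and 74.3 CPM in AT2 cells. BASCs-Tracer BASCs were above the BASCs of both other lines, by log2 ratios of 1.82 (6 of 6 plate pairs) and 1.15 (2 of 2), and level with Sftpc-TD AT2 cells (0.01). The 2 pairs with Sftpc-TD used only the 7 BASCs of plate 5, at 13.5 CPM. The 4 Sftpc-TD BASCs of plate 4, under the minimum of 5 cells, had 62.6 CPM. BASCs-Tracer BASCs had 79.2 and 67.2 CPM on plates 1 and 2.
Fbl stood at 8.48 CPM in BASCs-Tracer BASCs and between 7.08 and 11.3 CPM in the other groups of 10 or more cells, except ciliated cells, which had 47.4 CPM (44.6 to 50.4). The log2 ratio of ciliated to club cells was 1.98, positive in all 9 plate pairs, and 11 of 24 ciliated cells against 18 of 97 club cells had 10 reads.

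In none of the 10 comparisons were more than 3 members higher or more than 3 lower. A gene was called measured with 5 CPM in either group and called different at 2-fold or more. Against Sftpc-TD AT2 cells, 8 of the 10 were measured in BASCs-Tracer BASCs, with Myc, Odc1 and Heatr1 higher, as 9.9% of 10507 measured genes were, and Max lower, as 9.17% were; the choice of genes used this comparison. Against Scgb1a1-TD club cells, 9 were measured, with the same 3 higher (18.5% of all genes) and Mycl lower (15.2%), and the choice used this one too. Against Scgb1a1-TD BASCs, 8 were measured, with Myc, Odc1 and Nop56 higher (21.1%) and Max lower (10.2%). In the pair with Scgb1a1-TD club cells, Mycl passed the minimum only through the group where it was high.
Against BASCs-Tracer club cells, BASCs of that line had Odc1 and Heatr1 higher (31.8%) and Myc lower (21%). Against Sftpc-TD BASCs, 8 were measured, with Myc, Odc1 and Nop56 higher (36.2%) and 0 lower (17.7%); with median-of-ratios scaling 1 was higher. Against the 6 BASCs-Tracer AT2 cells, 9 were measured, with Heatr1 and Fbl higher (41%) and Mycl, Max and Nop56 lower (21.4%). These comparisons share the BASCs-Tracer BASCs, so their calls are not separate results. Odc1 (4.63 CPM in BASCs-Tracer club cells) and Myc (3.82 CPM in Sftpc-TD BASCs) passed the minimum only through the group where they were high. So did Heatr1 and Fbl (0.801 and 1 CPM in the BASCs-Tracer AT2 cells) and Mycl (0.15 CPM in the BASCs).
Other comparisons did not involve those cells. Between BASCs-Tracer and Scgb1a1-TD club cells, 9 were measured, with Myc higher (21.1% of 10475 genes) and Mycl lower (29.1%), and Odc1, Heatr1, Ncl, Nop56, Fbl, Npm1 and Max within 2-fold. The median log2 ratio of the measured members was -0.35 there, beside -0.07 over all measured genes. In Scgb1a1-TD, BASCs had Heatr1 higher (17.2%) and Mycl and Nop56 lower (24.7%) than club cells, with Nop56 lower in 6 of 9 plate pairs. In Sftpc-TD, BASCs had Heatr1 higher (16.6%) and Myc, Max and Nop56 lower (35.4%) than AT2 cells. Ciliated cells had Odc1 and Fbl higher (43%) and Myc lower (14.9%) than club cells of the same line. Mycl (0.138 CPM in BASCs-Tracer club cells, 0.0755 CPM in Scgb1a1-TD BASCs) passed the minimum only through the group where it was high. So did Myc, at 3.82 CPM in Sftpc-TD BASCs and 0.499 CPM in ciliated cells. With shares of called genes this large, counts of 1 to 3 among 8 or 9 members are near or below the background in these pairs. The median of all measured genes was itself off 0 in some pairs: 0.18 between BASCs-Tracer and Scgb1a1-TD BASCs, and -0.33 between BASCs and AT2 cells of Sftpc-TD.

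Correlations of the members with Myc across BASCs-Tracer BASCs were weak. Over BASCs-Tracer BASCs, Spearman correlations with Myc, on ranks taken within each plate, were 0.10 for Odc1, 0.10 for Max, 0.08 for Heatr1, 0.08 for Nop56, 0.02 for Npm1, -0.10 for Ncl and -0.13 for Fbl. The median over 7148 genes with a read in 25% or more of these cells was 0.03, and the 5th and 95th percentiles were -0.11 and 0.18. After thinning, Odc1 stood at -0.01, Heatr1 at -0.07 and Nop56 at -0.10. Odc1 and Heatr1 correlated with each other at 0.01. All values come from the same libraries, and with most cells at 0 to 9 reads of Myc such weak correlations are no finding.
Scgb1a1-TD club cells (97 cells) gave 0.24 for Max, which was 0.18 after thinning, and -0.01 for Odc1. In those club cells Myc also correlated at 0.36 with the number of genes with a read. Sftpc-TD AT2 cells gave 0.20 for Odc1, which was 0.05 after thinning. Among the 15 BASCs-Tracer club cells, a group added after the data were seen, Odc1 stood at -0.66 and Nop56 at -0.67 with Myc, and after thinning (13 cells) at -0.21 and -0.64. In that group Odc1 had 67 reads in all and reached 10 reads in 1 cell, and Nop56 reached 10 reads in 4 cells. The order of cells by either gene is therefore uncertain, and no conclusion is drawn from these values. In 24 ciliated cells Odc1 reached 0.71, but those cells held 11 reads of Myc in all.

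**Figure D5:**
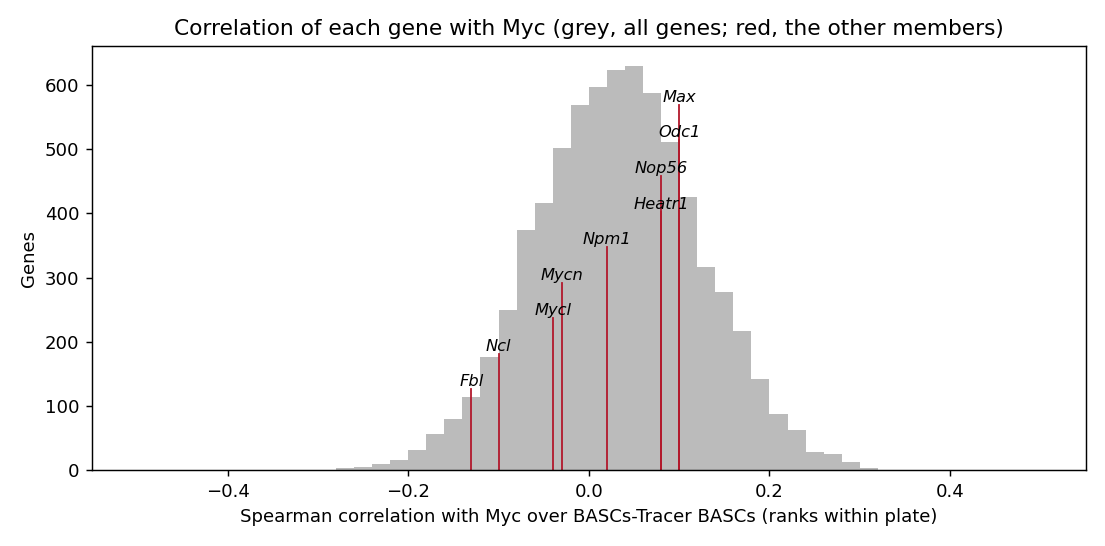
Spearman correlation with Myc of 7148 genes over BASCs-Tracer BASCs (grey histogram, number of genes), with other members marked in red. The members lie between -0.13 (Fbl) and 0.10 (Max and Odc1), and the 5th and 95th percentiles of all genes are -0.11 and 0.18.

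The genes most like Myc over these BASCs were Nsmce1 (0.43), Pik3c2a (0.34), Ramac (0.32), Csnk1e (0.32), Hsf1 (0.31), Nfe2l1 (0.30), Fgf1 (0.29) and Dcps (0.29), by the same correlation over the 85 and 53 cells of plates 1 and 2. After thinning they stood between 0.09 and 0.32. For Odc1 the closest were Ppp2r3c (0.32), Tsg101, Vldlr and Ssr1 (0.30 each), and for Heatr1 they were Cramp1l (0.34), Mrps24 (0.32), Apoc1 (0.30) and Slc35a2 (0.29).

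Of 14 other genes of the Myc network (Max-binding repressors, the related Mlx factors and cofactors), 13 were measured between BASCs-Tracer BASCs and Sftpc-TD AT2 cells, with 0 higher and 2 lower (9.9% and 9.17% of all genes). The lower ones were Mnt, a repressor that competes for Max, at 7.04 CPM in BASCs and 21 CPM in AT2 cells, and Mlxipl, the carbohydrate-responsive factor ChREBP, at 4.12 and 13 CPM in the same order. Trrap, a cofactor that Myc recruits, had 76.3 CPM in BASCs-Tracer BASCs and 64.3 CPM in AT2 cells. Between BASCs-Tracer and Scgb1a1-TD club cells, where 21.1% of all genes were higher and 29.1% lower, 3 of 14 were higher and 7 lower (median -0.98 beside -0.07 over all genes), among them Mga at 13.4 and 55.5 CPM.

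Of 39 further ribosome biogenesis genes, 36 were measured against Sftpc-TD AT2 cells, with 8 higher and 1 lower (9.9% and 9.17% of all genes) and a median of 0.14 beside 0.01 over all genes. Nob1, an endonuclease that trims the small-subunit RNA, had 21.1 CPM in BASCs-Tracer BASCs and 5.77 CPM in AT2 cells, and Polr1a, the largest subunit of RNA polymerase I, 8.39 and 27.9 CPM in the same order. Nop58, the partner of Nop56, had 40.4 and 38.9 CPM, and Tcof1, treacle, 92.5 and 88.2 CPM. Between the club cells of the 2 lines, 3 of 36 were higher in BASCs-Tracer and 13 lower (21.1% and 29.1% of all genes), with a median of -0.56 beside -0.07 over all genes. The part of Myc in the levels of this list was not tested.

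Of 14 other polyamine genes, all were measured against Sftpc-TD AT2 cells, with 1 higher and 1 lower (9.9% and 9.17% of all genes). Smox, spermine oxidase, had 21.5 CPM in BASCs-Tracer BASCs and 5.75 CPM in AT2 cells, and Arg1, an arginase that makes ornithine, 9.55 and 25.2 CPM in the same order. The abundant Sat1, which acetylates polyamines for export, had 773.1 CPM in BASCs and 724.1 CPM in AT2 cells, and the Odc1 antizyme Oaz1 589.4 and 569.2 CPM. Of 30 growth and metabolism genes, 28 were measured. Of these, 3 were higher, Nme1 and Phb among them, where 9.9% of all genes were, and 1 was lower, where 9.17% were, the mitochondrial factor Tfam (3.1 CPM in BASCs and 22.5 CPM in AT2 cells). Of 12 proliferation genes 2 were measured in this pair, Pcna at 69.7 and 64.3 CPM and Mcm2 at 10.1 and 4.65 CPM, and neither passed 2-fold. Against Scgb1a1-TD club cells 10 were measured, with 0 higher and 8 lower in BASCs-Tracer BASCs (18.5% and 15.2% of all genes). In BASCs-Tracer club cells 0 of 10 were higher and 9 lower than in Scgb1a1-TD club cells (21.1% and 29.1%). The lower genes passed the minimum of 5 CPM only through the Scgb1a1-TD club cells.

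Against Sftpc-TD AT2 cells, some other values were also higher in BASCs-Tracer BASCs. Immediate early genes summed to 15078 CPM there, against 9299 CPM in Scgb1a1-TD BASCs, 10953 CPM in Scgb1a1-TD club cells and 12377 CPM in Sftpc-TD AT2 cells; 3 of 19 were higher and 0 lower against AT2 cells (9.9% and 9.17% of all genes), with Ier5 at 179.7 and 66.2 CPM and Maff at 45.5 and 14.9 CPM, while Fos stood at 3044 and 2392 CPM. Ciliated cells had the highest sum, 27647 CPM, with 0.499 CPM of Myc and 57.2 CPM of Odc1. The sum correlated with Myc at -0.05 over BASCs-Tracer BASCs, 0.26 over Scgb1a1-TD club cells and 0.12 over Sftpc-TD AT2 cells. In the smaller groups it correlated at -0.04 over Scgb1a1-TD BASCs, -0.43 over ciliated cells and -0.13 over BASCs-Tracer club cells. The part of dissociation in these levels was not tested.
Leukocyte markers (8 genes) summed to 49.3 CPM in BASCs-Tracer BASCs, against 4.14 CPM in Sftpc-TD AT2 cells, and 7 of the 8 had a read in BASCs, with Ptprc at 12.5 CPM. They reached 50 CPM in 8 of these BASCs, one of which had 699.8 CPM of Myc. Without such cells the log2 ratio to AT2 cells was 1.53 for Myc, 1.42 for Odc1 and 1.76 for Heatr1. The sum was 315.7 CPM in Sftpc-TD BASCs, with Ptprc at 91 CPM. There 1 cell reached 50 CPM, and it held 80.9 CPM of Myc, 97.8 CPM of Mycn and 180.3 CPM of Heatr1, while the other 10 cells had no read of Myc.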

How the data were processed

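Single sorted cells gave full-length cDNA, which was amplified by PCR and made into Nextera XT libraries, per the labels' protocols, with no molecular identifiers. The submitters' processing notes name HISAT2, HTSeq and GRCm38; the sources used here give neither versions nor the strand setting. Deposited by the authors was one table of unscaled read counts for 480 cells and 53379 genes; 0 columns were unmatched and 0 identical to another. Symbols, exons and positions came from GENCODE for GRCm38.

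Counts were summed per line and sub-type and divided by summed totals (CPM). Ratios used 1 CPM added; plate pairs needed 5 cells of a group per plate. With 1 sample per line, no test was run. Shares were taken at 10 reads, before and after thinning to 100000 reads a cell. Correlations used ranks within plate. Members and lists were chosen with earlier results of these data known. All 10 members were named; so were, of each list, the 4 measured genes highest in BASCs-Tracer BASCs and up to 2 per direction past 2-fold against Sftpc-TD AT2 cells (not all printed), and the 8 (Myc) or 4 (Odc1, Heatr1) genes with the highest correlation. No doublet caller was run, and no cell was left out of the main values.

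The ratios were recomputed with each cell weighted equally, with median-of-ratios scaling, after leaving mitochondrial genes and the top 10 genes out of totals, with 10 CPM added, without the minimum of 5 CPM, in the 468 cells with 100000 reads and 2000 genes, after thinning, without each plate, on shared plates, and without the 3 cells with most Myc. Leaving out cells with 50 CPM of leukocyte markers, and correlations in 15 BASCs-Tracer club cells, were added after the data were seen. The steps were tested on simulated data. Tools were Python 3.11.15, numpy 2.4.6, pandas 2.3.3, scipy 1.17.1 and matplotlib 3.10.9.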

Additional observations from a re-analysis of the deposited data

Results flagged for a closer look

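In the 6 AT2 cells of BASCs-Tracer, 1 cell stood far from the others for Myc, at 183.5 CPM, with the next at 1.24 CPM and the other 4 at 0. Likewise 1 cell had 270.1 CPM of Mycl and the next 0.737 CPM. No cell of the group had 10 reads of both genes. Among groups of 4 to 10 cells, 9 gene and group combinations were looked at. With most cells of a group at 0, any single cell with reads stands out in this way, so no chance rate is given.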

How the results depend on the processing

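No paired analysis was possible because the values come from no test; values on shared plates are given instead. No ratio past 2-fold changed sign under any alternative run. The log2 ratio of Myc in BASCs of BASCs-Tracer to AT2 cells of Sftpc-TD (1.70) was 0.67 as a mean over cells, 0.54 after thinning, 2.49, 0.86, 2.41 and 0.88 without plates 1, 2, 4 and 5, and 0.83 without the 3 cells with most Myc in each group. To club cells of Scgb1a1-TD (1.72) it was 2.51 and 1.01 without plates 1 and 2, and 1.13 without the 3 cells. To BASCs of Scgb1a1-TD (2.62) it was 1.89 with 10 CPM added, 2.02 after thinning, 3.41, 1.72, 1.26 and 5.59 without plates 1, 2, 3 and 4, 6.10 on the shared plate, where those 5 BASCs of Scgb1a1-TD held 1 read, and 4.13 without the 3 cells. Between the club cells (5.27) it was 4.57 without plate 2 and 4.63 without the 3 cells. On shared plates alone, 5 members in place of 3 were higher in BASCs of BASCs-Tracer than in club cells of Scgb1a1-TD, and 2 in place of 1 between the club cells. The causes were not tested. Of 1008 alternative values of log2 ratios over all members and pairs, 878 stayed within 1.5-fold and 130 did not; of 244 counts, 43 moved, and of 32 correlations, 9 moved by over 0.1. Of 100 shares taken without thinning or at 10 reads, 65 lay outside the interval of the share with a read after thinning. Groups differ in overall scale by median-of-ratios factors of -0.58 (ciliated) to 0.12 (BASCs of Sftpc-TD) on the log2 scale. Depth limits the low genes: 15 club cells, 11 BASCs and 6 AT2 cells cannot show absence.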
